A study of Mus musculus with 17 samples.

Results

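The 7 globin genes described here are the rows Hbb-y, Hbb-bh1, Hbb-bs and Hbb-bt of the beta-like cluster and Hba-x, Hba-a1 and Hba-a2 of the alpha-like cluster. They were chosen by name from the 41709 gene symbols of the deposited table and were read in all 17 libraries. Each library holds the RNA of a single whole mouse embryo on the C57BL/6J background. At E9.5, 4 embryos carried a CS and an INDEL allele of Disp1 (Disp1_CS_INDEL, bred from Disp1 CS/+ mothers and Disp1 INDEL/+ fathers) and 4 were wild type (Disp1_WT). At E8.5, 5 embryos labelled MYOX MUT, which the design text names as Myo10 m1J/m1J offspring of heterozygous parents (Myo10_m1J), stood beside 4 Myo10 +/+ embryos (Myo10_WT). Disp1 encodes Dispatched, which releases lipid-modified Hedgehog ligands, and Myo10 encodes the filopodial motor myosin X. Each embryo counts as 1 replicate; litter membership is not labelled.

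Haemoglobin joins alpha-like and beta-like globin chains, and mouse embryos make different chains in turn. Primitive erythroid cells, which arise in the yolk sac and circulate once the heart beats, use the embryonic chains encoded by Hbb-bh1, Hbb-y and Hba-x together with the adult-type alpha genes Hba-a1 and Hba-a2. As these cells mature, Hbb-y replaces Hbb-bh1 and Hba-a1 and Hba-a2 replace Hba-x. Hbb-bs and Hbb-bt are the adult beta genes of this strain and are known mainly from definitive red cells, which later come from the fetal liver and bone marrow and which also fill the mother's blood.

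How far each row can be read alone depends on its sequence. The first 60 coding bases of each gene are shown because they separate the embryonic genes from the adult-type ones and show which adult-type genes are copies. They are written 5′ to 3′ from the GENCODE transcripts of build GRCm38 (beta-like genes on chromosome 7, minus strand, and alpha-like genes on chromosome 11, plus strand). Capitals mark bases that differ from Hbb-bs in the beta-like genes and from Hba-a1 in the alpha-like genes.
Hbb-y: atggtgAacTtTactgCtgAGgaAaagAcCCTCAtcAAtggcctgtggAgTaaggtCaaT
Hbb-bh1: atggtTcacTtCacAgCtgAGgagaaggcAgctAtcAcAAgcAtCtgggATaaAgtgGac
Hbb-bs: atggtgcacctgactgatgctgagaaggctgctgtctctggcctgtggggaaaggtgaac
Hbb-bt: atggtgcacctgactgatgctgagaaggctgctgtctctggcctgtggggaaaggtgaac
Hba-x: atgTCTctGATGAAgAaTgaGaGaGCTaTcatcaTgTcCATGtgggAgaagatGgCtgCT
Hba-a1: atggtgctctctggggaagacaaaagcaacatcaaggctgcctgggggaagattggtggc
Hba-a2: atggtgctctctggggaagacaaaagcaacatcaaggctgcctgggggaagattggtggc
Over these 60 bases Hbb-y differed from Hbb-bs at 19 positions, Hbb-bh1 at 18 and Hbb-bt at 0. Hba-x differed from Hba-a1 at 28 positions and Hba-a2 at 0. Over the whole coding sequence Hbb-bs and Hbb-bt differed at 1 of 444 bases, and Hba-a1 and Hba-a2 at 1 of 429. Hbb-y and Hbb-bh1 shared 76.4% of coding bases, and Hba-x and Hba-a1 62.0%. No stretch of 50 bases was shared between an embryonic transcript and any other globin transcript compared here, whereas 65.8% of such stretches of Hbb-bs were found in Hbb-bt and 67.5% of those of Hba-a1 in Hba-a2. The split between Hba-a1 and Hba-a2, and between Hbb-bs and Hbb-bt, is therefore uncertain in these values, and their sums are given beside the single rows.

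The 120 bases before the annotated start site are shown for the 6 genes with an entry in the RefSeq promoter table of GRCm38.p6. In the comparison of the wild types given below, all 6 were called higher at E9.5, as were 69.4% of the genes tested. Age runs there with experiment, breeding line and library composition. Hbb-bh1 had no entry. Capitals mark 5 short motifs searched on both strands: CACCC and GATAA (sequences that KLF1 and GATA1 are known to bind), CCAAT, and the TATA-type boxes TATAA and CATAAA. The stretches lie at chr7:103853208-103853327 (Hbb-y), chr7:103827929-103828048 (Hbb-bs) and chr7:103813924-103814043 (Hbb-bt), all on the minus strand, and at chr11:32276480-32276599 (Hba-x), chr11:32283552-32283671 (Hba-a1) and chr11:32296372-32296491 (Hba-a2), all on the plus strand.
Hbb-y: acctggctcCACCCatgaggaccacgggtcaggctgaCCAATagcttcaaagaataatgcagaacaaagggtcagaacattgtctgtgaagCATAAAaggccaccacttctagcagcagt
Hbb-bs: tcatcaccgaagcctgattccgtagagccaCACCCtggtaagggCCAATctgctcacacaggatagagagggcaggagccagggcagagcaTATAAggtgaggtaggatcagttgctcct
Hbb-bt: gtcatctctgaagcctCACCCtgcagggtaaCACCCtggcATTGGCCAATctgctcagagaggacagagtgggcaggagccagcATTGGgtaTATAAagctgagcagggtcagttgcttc
Hba-x: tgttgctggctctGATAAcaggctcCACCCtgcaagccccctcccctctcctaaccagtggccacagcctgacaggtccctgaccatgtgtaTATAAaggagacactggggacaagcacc
Hba-a1: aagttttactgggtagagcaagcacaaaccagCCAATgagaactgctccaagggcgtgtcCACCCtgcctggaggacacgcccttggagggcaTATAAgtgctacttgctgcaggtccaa
Hba-a2: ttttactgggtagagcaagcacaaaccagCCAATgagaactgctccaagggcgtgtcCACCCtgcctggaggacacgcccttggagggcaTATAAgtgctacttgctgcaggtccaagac
A CACCC stood in 6 of the 6 stretches, a CCAAT in 5 (not Hba-x) and a TATAA in 5 (not Hbb-y, which has CATAAA at position -29 from the start site). A GATAA stood in 1 of them, that of Hba-x, and in 6 of 6 when the window reached back 250 bases. Among 32851 RefSeq promoters of the same length, CACCC was found in 31.7%, CCAAT in 21.3%, TATAA in 11.8%, GATAA in 10.5% and CATAAA in 5.16% of 120-base windows, and GATAA in 22.6% of 250-base windows. In the capitals of Hbb-bt, a CCAAT on the minus strand abuts one on the plus strand. Within the 250 bases the longest run shared by Hba-a1 and Hba-a2 was 247 bases, against 14 for Hbb-bs and Hbb-bt. These matches describe letters only.

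Values are TPM, which corrects for transcript length, so genes can be ranked within a library, and which sums to 1000000 in each library, so read depth is unknown. The number of genes at 1 TPM or more was 13103 to 13408 at E9.5 and 11926 to 12957 at E8.5. Structural non-coding RNAs, such as the RNA of the signal recognition particle, took 29.7% to 44.5% of all TPM in the E8.5 libraries but 0.0052% to 0.0132% in the E9.5 libraries, a difference in library composition that runs with age. Myo10 itself was 2.16 to 4.35 TPM in Myo10_m1J against 19.9 to 33.9 TPM in Myo10_WT. Disp1 was 11.6 to 16.3 TPM in Disp1_CS_INDEL against 15.3 to 19.3 TPM in Disp1_WT.

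At E9.5 Hbb-y ranked between 1 and 3 among all genes by TPM in every embryo, Hbb-bh1 between 2 and 6 and Hba-x between 5 and 10. Together the 7 genes made up 2.84% to 5.68% of all TPM in Disp1_CS_INDEL and 3.65% to 4.85% in Disp1_WT. The order of the genes was the same in every E9.5 embryo apart from the pair of near copies: Hbb-y stood above Hbb-bh1 in 8 of 8, Hbb-bh1 above Hba-x in 8 of 8, Hba-x above each of Hba-a1 and Hba-a2 in 8 of 8, these above Hbb-bs in 8 of 8, and Hbb-bs above Hbb-bt in 8 of 8. Hba-a1 was above Hba-a2 in 2 of 8, and that pair is not ordered. Across embryos the ranges of neighbours overlapped, since Hbb-y ran between 10863 and 19029 TPM and Hbb-bh1 between 6809 and 14680 TPM, so the order holds within embryos.

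At E8.5 the same genes were lower and far more uneven. Together they made up 0.00956% to 0.539% of all TPM in Myo10_m1J and 0.0320% to 0.204% in Myo10_WT. Hbb-bh1 was above Hbb-y in 9 of 9 embryos, the reverse of the order at E9.5, and above Hba-x in 9 of 9. Hba-x was above the sum of Hba-a1 and Hba-a2 in 8 of 9. From the lowest to the highest E8.5 embryo the summed globins differed 56.4-fold, against 2.00-fold over the 8 embryos at E9.5. Without the lowest, Myo10_m1J replicate 5, the E8.5 range was 16.9-fold.

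**Figure D1:**
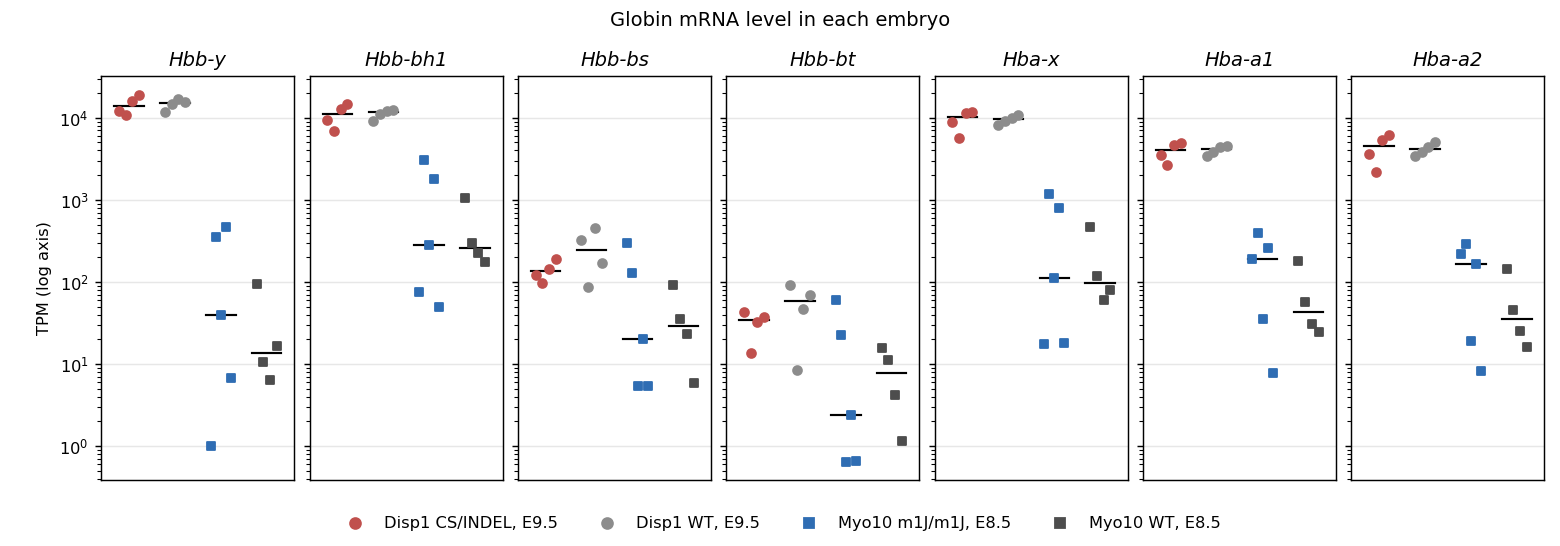
TPM of each globin gene on a log axis, with a point per embryo and a bar at the group median; circles are E9.5 embryos and squares E8.5 embryos. Both E9.5 groups sit close together for the embryonic and adult-type alpha genes, the E8.5 points spread widely, and for Hbb-bs and Hbb-bt the ages overlap.

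The comparison of Disp1_CS_INDEL with Disp1_WT asks whether the mutant embryos differ in their blood messages at E9.5. No globin gene differed beyond the spread between embryos. Hbb-y was 12193, 10863, 15904 and 19029 TPM in Disp1_CS_INDEL, against 11892, 14875, 16892 and 15364 TPM in Disp1_WT. Hbb-bh1 was 9401, 6809, 12809 and 14680 TPM in Disp1_CS_INDEL, against 9087, 11173, 12119 and 12335 TPM in Disp1_WT. For both genes the mutant embryos reached both lower and higher than the wild-type ones, and replicate 2 was the lowest mutant. Hba-x, the embryonic alpha-like gene, had the mutant embryos in the same order, with 8810, 5736, 11481 and 11829 TPM in Disp1_CS_INDEL against 8207, 9063, 10052 and 10839 TPM in Disp1_WT. The adult-type alpha genes summed averaged 8270 ± 2773 TPM in Disp1_CS_INDEL and 8204 ± 1196 TPM in Disp1_WT (SD, n = 4 each).

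limma called 0 of the 7 globin genes in this comparison, where 0.0301% of 13294 genes were called, and their smallest unadjusted p was 0.141 (2.26% of all genes had an unadjusted p under 0.05). The log2 difference of Hbb-y was -0.05 (SE 0.17, 95% interval -0.42 to 0.32), that of Hbb-bh1 -0.08 (SE 0.21, interval -0.55 to 0.38) and that of Hba-x -0.06 (SE 0.20, interval -0.51 to 0.39). Hba-a1 and Hba-a2 differed by -0.06 and -0.04. All 7 fitted differences were negative, beside 43.7% of all genes, but without Disp1_CS_INDEL replicate 2 those of Hbb-y, Hbb-bh1, Hba-x, Hba-a1 and Hba-a2 turned positive (0.08 to 0.25). That embryo, with 2.84% of its TPM in globins, also had the highest sum of megakaryocyte markers (107 TPM, of which 75.0 TPM was Pf4, a platelet chemokine; 13.6 to 26.1 TPM in the other 7 embryos at E9.5), and the part of this in its globin values was not tested.

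The adult beta genes had the largest fitted differences and the widest intervals. Hbb-bs was 123, 96.7, 145 and 189 TPM in Disp1_CS_INDEL, against 325, 87.7, 448 and 172 TPM in Disp1_WT. Hbb-bt was 42.6, 13.8, 32.4 and 37.2 TPM in Disp1_CS_INDEL, against 92.7, 8.55, 46.5 and 70.2 TPM in Disp1_WT. The groups overlapped, and a single wild-type embryo, replicate 2, held the lowest value of both genes. limma gave -0.68 for Hbb-bs (SE 0.43, interval -1.63 to 0.27) and -0.47 for Hbb-bt (SE 0.63, interval -1.86 to 0.93), with an adjusted p of 1.00 for each.

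The wild-type embryo with the highest Hbb-bs, replicate 3, also stood apart in markers of tissue around the embryo. The 8 decidua and trophoblast markers summed to 789 TPM there, of which the decidual prolactin Prl8a2 gave 551 TPM, against 6.41 to 15.9 TPM in the 4 Disp1_CS_INDEL embryos and 8.60 to 33.1 TPM in the other 3 Disp1_WT embryos. Its 8 visceral yolk sac endoderm markers summed to 899 TPM, against 39.1 to 61.7 TPM in Disp1_CS_INDEL and 47.1 to 80.7 TPM in the other Disp1_WT embryos. Its maternal leukocyte markers summed to 2.5 TPM, the highest at E9.5. The sums were 0 to 0.710 TPM in Disp1_CS_INDEL and 0.207 to 0.389 TPM in the other Disp1_WT embryos. In replicate 3 S100a9, Camp, Ngp and Retnlg were at 0, and of these Camp and Ngp were at 0 in every E9.5 embryo. Without this embryo the Hbb-bs difference was -0.34, and without Disp1_WT replicate 2 it was -1.12; neither was called. For Hbb-bt, Disp1_WT replicate 3 (46.5 TPM) was below Disp1_WT replicates 1 and 4 (92.7 and 70.2 TPM). Hbb-bs plus Hbb-bt came to 418 TPM in Disp1_WT replicate 1 and 494 TPM in replicate 3. In replicate 1 the decidual and yolk sac sums were 33.1 and 48.8 TPM. The part of carried-over tissue in these values was not tested.

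The make-up of the globin messages was nearly fixed at E9.5. Hbb-y gave 55.0% to 61.1% of the beta-like sum in Disp1_CS_INDEL and 55.0% to 57.3% in Disp1_WT. Hba-a1 and Hba-a2 gave 45.0% to 48.3% of the alpha-like sum in Disp1_CS_INDEL and 45.5% to 47.0% in Disp1_WT. The alpha-like sum was 0.598 to 0.742 of the beta-like sum in Disp1_CS_INDEL and 0.637 to 0.727 in Disp1_WT. Hbb-bs and Hbb-bt together were a trace, at 0.615% to 0.762% of the beta-like sum in Disp1_CS_INDEL and 0.368% to 1.95% in Disp1_WT.

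**Figure D2:**
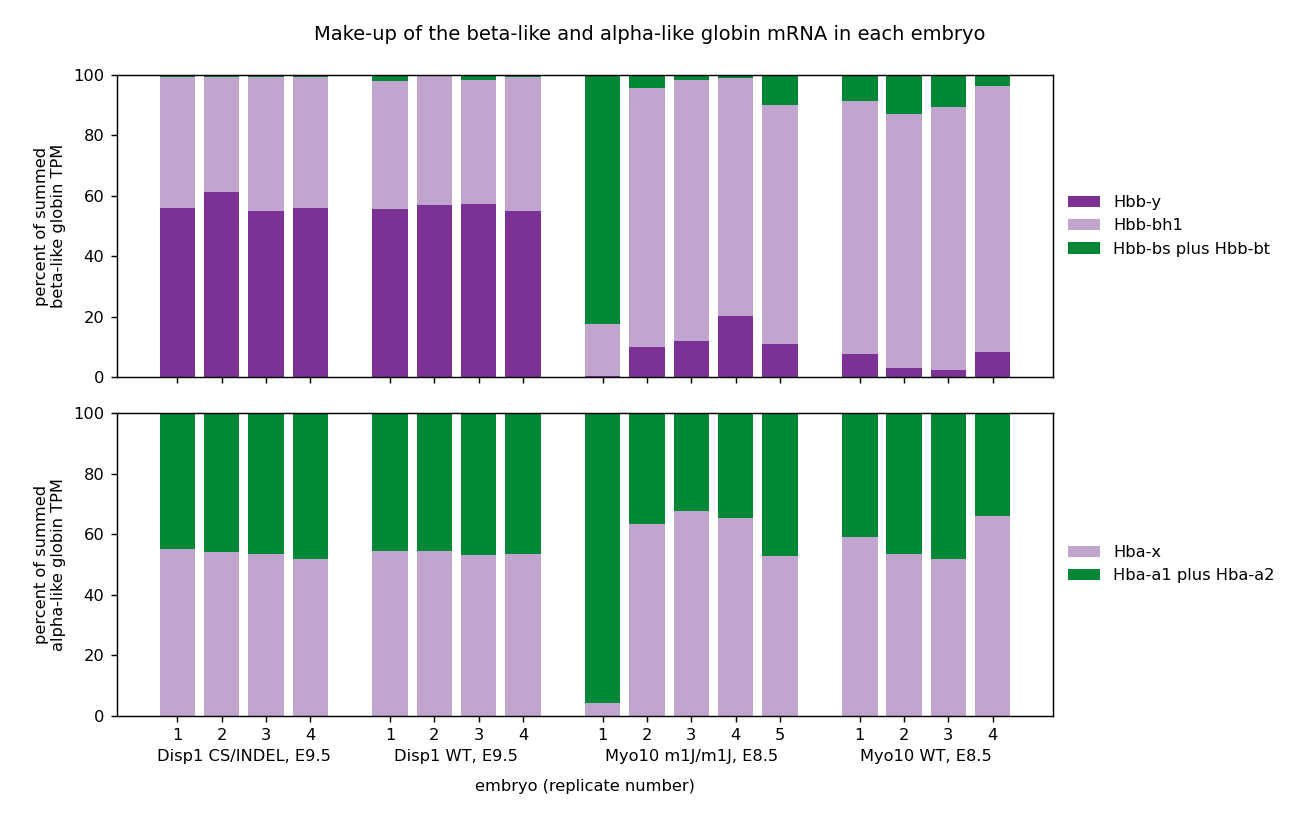
Percent of the summed beta-like TPM (top) and alpha-like TPM (bottom) given by each gene, with a bar per embryo. At E9.5 the bars are nearly alike, with Hbb-y at 55.0% to 61.1%; at E8.5 Hbb-bh1 leads except in Myo10_m1J replicate 1, where Hbb-bs and Hbb-bt gave 82.4% of the beta-like sum.

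The log2 ratio of Hbb-y to Hbb-bh1, the embryonic pair that switches as primitive cells mature, averaged 0.43 ± 0.16 in Disp1_CS_INDEL and 0.40 ± 0.067 in Disp1_WT (SD, n = 4 each). The difference of 0.03 was within the spread (exact two-sided permutation p = 0.886, Benjamini-Hochberg adjusted over the 6 ratio tests 0.937). The log2 ratio of Hba-a1 plus Hba-a2 to Hba-x averaged -0.21 ± 0.080 in Disp1_CS_INDEL and -0.22 ± 0.043 in Disp1_WT (SD, n = 4 each; exact permutation p = 0.80, adjusted 0.937). Both ratios are taken within a library and do not depend on its scaling.

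The comparison of Myo10_m1J with Myo10_WT asks the same of embryos lacking most Myo10 message, at E8.5, when the first blood cells are present. Here the embryos of each group differed from each other by more than the groups did. Hbb-bh1, the leading globin at this age, was 76.0, 3016, 285, 1799 and 48.9 TPM in Myo10_m1J, against 1040, 301, 223 and 176 TPM in Myo10_WT. The mutant embryos held both the highest and the lowest values, and in each group 1 or 2 embryos stood far above the rest. Hba-x was 17.5, 1186, 113, 800 and 17.9 TPM in Myo10_m1J, against 472, 117, 60.1 and 79.1 TPM in Myo10_WT. Hbb-y was 1.02, 354, 39.2, 465 and 6.79 TPM in Myo10_m1J, against 95.5, 10.7, 6.42 and 16.6 TPM in Myo10_WT. The same embryos, replicates 2 and 4 of Myo10_m1J and replicate 1 of Myo10_WT, were high for all 3 embryonic genes.

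The summed markers of primitive erythroid cells (10 genes, no globin among them) were also highest in those embryos, at 87.7 and 53.1 TPM in Myo10_m1J replicates 2 and 4 and 49.95 TPM in Myo10_WT replicate 1, against 14.05 to 34.1 TPM in the other 6. All 10 markers were above 0 in all 9 embryos, but many were below 1 TPM. The number at 1 TPM or more was 10 in Myo10_m1J replicate 2 and Myo10_WT replicate 1, and 9 in Myo10_m1J replicate 4. It was 4, 6 and 2 in Myo10_m1J replicates 1, 3 and 5. In Myo10_WT replicates 2, 3 and 4 it was 8, 7 and 4. In RNA from whole embryos, fewer erythroid cells and less globin RNA per cell cannot be told apart, and the part of embryo stage within a litter was not tested.

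limma called 0 of the 7 globin genes here, where 0.00796% of 12560 genes were called. The smallest unadjusted p among the 7 was 0.430, while 6.8% of all genes had one under 0.05. The log2 differences were 1.04 for Hbb-y (SE 1.40, 95% interval -2.0 to 4.07), 0.10 for Hbb-bh1 (SE 1.07, interval -2.22 to 2.43) and 0.02 for Hba-x (SE 1.17, interval -2.51 to 2.55), with limma adjusted p between 0.587 and 0.990 for the 7 genes. Hba-a1 and Hba-a2 gave 0.75 and 0.79, Hbb-bs 0.22 and Hbb-bt -0.05, so 6 of the 7 were above 0, beside 6% of all genes. Across the genes tested the median was -0.16, and relative to it the 7 differences ran between 0.11 and 1.19. The libraries differed in composition, with structural non-coding RNAs averaging 38.1% of TPM in Myo10_m1J and 33.7% in Myo10_WT. With median-of-ratios scaling the median was 0.015, so the 6% depends on scaling. The 7 differences then ran between 0.11 and 1.23, with 0 called. The intervals leave room for several-fold changes in either direction. For Hbb-bh1, Hba-x, Hbb-bs and Hbb-bt the sign turned when single embryos were left out. Hbb-y then ran between 0.15 (without Myo10_m1J replicate 4) and 2.11 (without Myo10_m1J replicate 1). Hba-a1 ran between 0.22 and 1.59 and Hba-a2 between 0.28 and 1.53, each lowest without Myo10_m1J replicate 2 and highest without Myo10_m1J replicate 5. None of these was called.

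**Figure D3:**
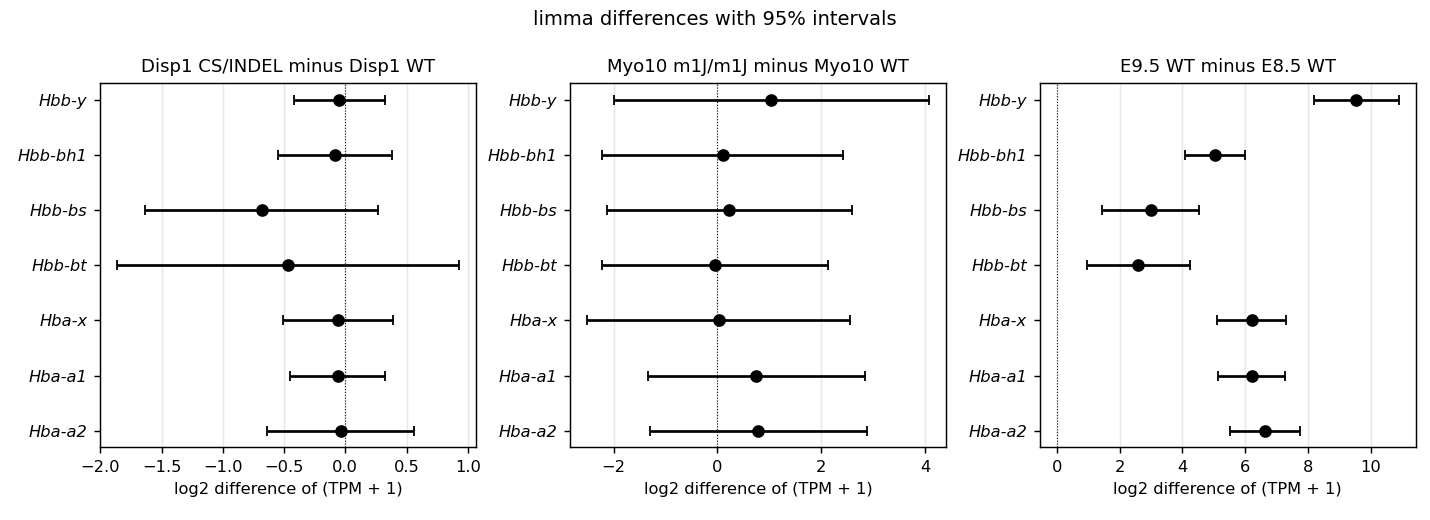
Fitted log2 differences of (TPM + 1) with 95% intervals for the 7 globin genes in the 3 comparisons; the horizontal scales differ. The intervals of the Disp1 and Myo10 comparisons all cross 0, and the 7 intervals of the age comparison lie above it.

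Myo10_m1J replicate 1 did not share the globin pattern of the other E8.5 embryos. It had 301 TPM of Hbb-bs and 60.6 TPM of Hbb-bt, the highest of the 9 E8.5 embryos for both genes, but only 1.02 TPM of Hbb-y and 17.5 TPM of Hba-x, the lowest of the 9. Hbb-bs was 128, 20.02, 5.42 and 5.42 TPM in the other 4 Myo10_m1J embryos, taken from high to low, against 92.2, 35.4, 23.0 and 5.93 TPM in Myo10_WT. Hba-a1 and Hba-a2 together stood at 405 TPM in replicate 1, or 95.9% of its alpha-like sum, while they were 32.4% to 47.1% in the other 4 Myo10_m1J embryos and 34.0% to 48.3% in Myo10_WT. Adult beta genes made up 82.4% of its beta-like sum, against 0.981% to 9.84% in the other Myo10_m1J embryos and 3.55% to 13.03% in Myo10_WT.

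Other messages of that embryo were read beside these values. Alas2, the erythroid enzyme that starts haem synthesis, was 4.45 TPM, while Klf1, the erythroid transcription factor, was 1.12 TPM. Its 8 decidua and trophoblast markers summed to 36.1 TPM, of which Prl8a2 gave 9.62 TPM, against 1.30 to 4.24 TPM in Myo10_m1J replicates 3, 4 and 5, 247 TPM in Myo10_m1J replicate 2 and 1.73 to 5.25 TPM in Myo10_WT. Its 6 maternal leukocyte markers summed to 0.588 TPM, the highest at E8.5 after 10.7 TPM in Myo10_m1J replicate 2, where S100a8 was 10.4 TPM. The sums were 0 to 0.0766 TPM in Myo10_m1J replicates 3, 4 and 5 and 0.0471 to 0.507 TPM in Myo10_WT. Camp, Ngp and Retnlg were at 0 in Myo10_m1J replicate 1, and of these Ngp and Retnlg were at 0 in every E8.5 embryo. Myo10_m1J replicate 2, with the larger decidual sum, was also second among the E8.5 embryos for Hbb-bs. It was the highest of them for Hbb-bh1 (3016 TPM), Hba-x (1186 TPM) and the summed primitive erythroid markers (87.7 TPM) as well. Its Hbb-bs plus Hbb-bt were 151 TPM within a beta-like sum of 3520 TPM. The part of maternal blood or decidua in the adult-type globins was not tested.

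**Figure D4:**
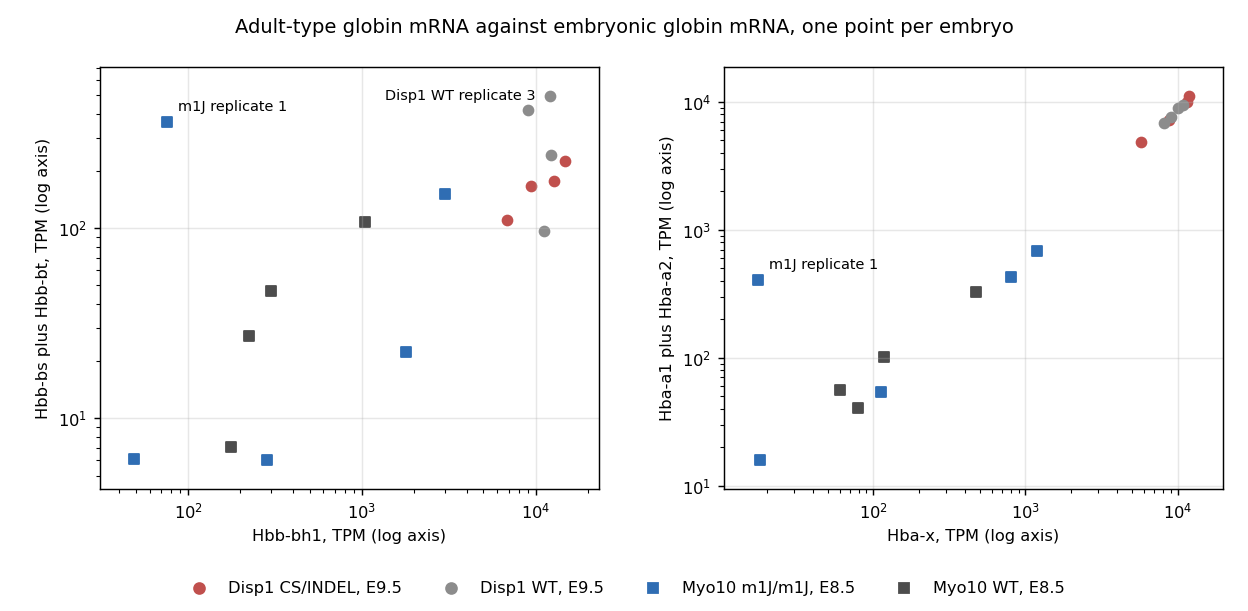
Summed TPM of the adult-type genes against an embryonic gene of the same cluster, on log axes, with a point per embryo: Hbb-bs plus Hbb-bt against Hbb-bh1 (left) and Hba-a1 plus Hba-a2 against Hba-x (right). The alpha-like points lie close to a single line apart from Myo10_m1J replicate 1, and the beta-like points scatter, with that embryo at 361 TPM of Hbb-bs plus Hbb-bt beside 76.0 TPM of Hbb-bh1.

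The log2 ratio of Hbb-y to Hbb-bh1 was -6.22, -3.09, -2.86, -1.95 and -2.85 in Myo10_m1J, against -3.44, -4.82, -5.12 and -3.41 in Myo10_WT. The lowest value and the 4 highest were all mutant. The means were -3.40 ± 1.64 in Myo10_m1J (SD, n = 5) and -4.20 ± 0.90 in Myo10_WT (SD, n = 4), and the difference of 0.80 was within the spread (exact two-sided permutation p = 0.413, adjusted over the 6 ratio tests 0.825). Without Myo10_m1J replicate 1 the 4 remaining mutants lay above all 4 wild types, with a difference of 1.51 and an exact permutation p of 0.0286, the smallest that 4 against 4 can give, with no adjustment. Of the 9 embryos left out in turn, this was the only 1 that gave a p under 0.05. That embryo stood far from its group on this same ratio, so no conclusion is drawn from leaving it out. The log2 ratio of Hba-a1 plus Hba-a2 to Hba-x averaged 0.32 ± 2.38 in Myo10_m1J (SD, n = 5) and -0.45 ± 0.39 in Myo10_WT (SD, n = 4), a difference of 0.77 (exact permutation p = 0.937, adjusted 0.937) that turned to -0.29 without the same embryo.

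**Figure D5:**
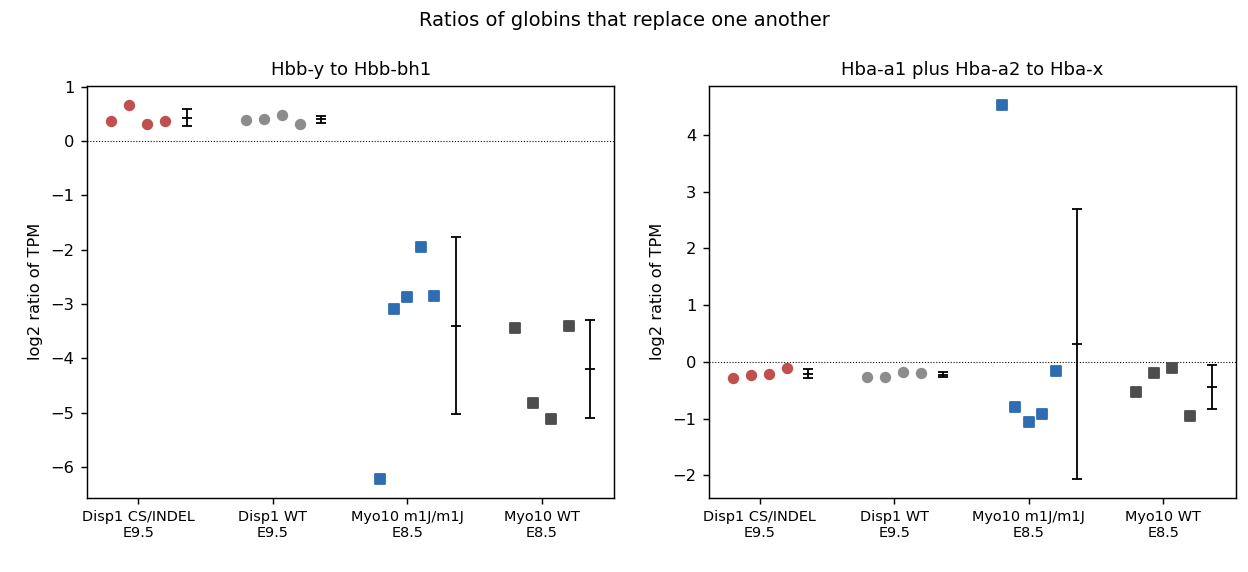
Log2 ratio of TPM of Hbb-y to Hbb-bh1 (left) and of Hba-a1 plus Hba-a2 to Hba-x (right), with a point per embryo and the group mean ± SD beside the points. The Hbb-y ratio is above 0 in all E9.5 embryos and at -1.95 or lower in all E8.5 embryos, while the alpha-like ratio lies between -1.06 and -0.10 in all embryos apart from 4.54 in Myo10_m1J replicate 1.

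The wild types of the 2 experiments, Disp1_WT at E9.5 and Myo10_WT at E8.5, show the globins across a day of development. Age runs here with experiment, breeding line and library composition, which cannot be told apart. Hbb-y had the largest difference of the 7, averaging 14756 ± 2094 TPM at E9.5 and 32.3 ± 42.4 TPM at E8.5 (SD, n = 4 each), 457 times the E8.5 mean. Hbb-bh1, the early beta-like gene, averaged 11178 TPM at E9.5 and 435 TPM at E8.5, 25.7 times the E8.5 mean. The alpha-like genes lay between these, Hba-x at 52.4 times and Hba-a1 plus Hba-a2 at 62.5 times the E8.5 mean. Hbb-bs and Hbb-bt were 6.60 and 6.73 times the E8.5 mean, with overlapping embryos. These E8.5 means rest on Myo10_WT replicate 1, and without it the folds were 1314 for Hbb-y, 47.8 for Hbb-bh1, 112 for Hba-x, 124 for Hba-a1 plus Hba-a2, 12.04 for Hbb-bs and 9.80 for Hbb-bt.

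limma called 7 of the 7 globins higher at E9.5, in a comparison where 69.4% of 13397 genes were called higher and 10.2% lower. With median-of-ratios scaling, which centres the genes, 36.4% were called higher and 36.2% lower, and 7 of 7 globins were still called. The groups did not overlap for 5 of the 7 genes (not for Hbb-bs or Hbb-bt), beside 66.1% of all genes apart in that direction. In size, 5 of the 7 were among the 10 genes with the largest log2 difference, and Hbb-y was the second of all genes. Under median-of-ratios scaling 4 of the 7 were among those 10, and with a pseudocount of 0.1 only 1 was, Hbb-y, which stayed second.

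The log2 difference of Hbb-y was 9.55 (SE 0.61, limma adjusted p = 1.34e-07), that of Hba-a2 6.63 (SE 0.51), that of Hba-a1 6.21 (SE 0.48), that of Hba-x 6.20 (SE 0.50) and that of Hbb-bh1 5.05 (SE 0.43). Hbb-bs gave 2.99 (SE 0.70, limma adjusted p = 0.00216) and Hbb-bt 2.59 (SE 0.75, limma adjusted p = 0.0076). Relative to 0.62, the median over the genes tested, the 7 differences ran between 1.97 and 8.93. Leaving out each embryo in turn kept all 7 calls, with Hbb-y between 9.08 (without Myo10_WT replicate 3) and 10.3 (without Myo10_WT replicate 1), and Hbb-bt between 2.03 (without Myo10_WT replicate 4) and 3.30 (without Disp1_WT replicate 2). With protein-coding genes only, a scaling chosen after seeing the data, Hbb-bt was no longer called (1.87, limma adjusted p = 0.0629).

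Markers of erythroid cells moved the same way. The 10 primitive erythroid markers summed to 267 to 346 TPM in Disp1_WT and 14.05 to 49.95 TPM in Myo10_WT, groups that do not overlap. The largest in Disp1_WT were Slc4a1 and Alas2, averaging 102 and 99.2 TPM. Tal1 differed by 0.43, less than the median gene (0.62). limma called 10 of 10 higher, beside 69.4% of all genes, and 9 with median-of-ratios scaling, beside 36.4%. With protein-coding genes only, 9 of these markers were called higher and 1 lower, beside 26.4% and 45.7% of all genes. With the mean of these markers as a covariate, 0 of the 7 globins were called, with Hbb-y at 4.44 (SE 1.77, limma adjusted p = 0.108) and Hbb-bh1 at 0.16 (SE 0.63). Over all genes the same covariate left 9.4% called higher and 7.61% lower, so most calls of the table were lost with it. Since the marker sums do not overlap between the ages, the covariate runs with age, and this fit cannot tell them apart. The 8 visceral yolk sac endoderm markers moved the other way, summing to 47.1 to 899 TPM in Disp1_WT and 731 to 2266 TPM in Myo10_WT. Their part in the globin values was not tested.

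Within the beta-like pair the ages were fully apart. The log2 ratio of Hbb-y to Hbb-bh1 was 0.39, 0.41, 0.48 and 0.32 in Disp1_WT, against -3.44, -4.82, -5.12 and -3.41 in Myo10_WT, a difference of 4.60. The exact two-sided permutation p was 0.0286, the smallest that 4 against 4 embryos allow, and 0.171 when adjusted over the 6 ratio tests. The alpha-like ratio of Hba-a1 plus Hba-a2 to Hba-x was -0.22 ± 0.043 in Disp1_WT and -0.45 ± 0.39 in Myo10_WT (SD, n = 4 each), and the difference of 0.23 did not exceed the spread (exact permutation p = 0.371, adjusted 0.825). The beta-like pair thus differed between the ages by more than its spread, while the alpha-like ratio overlapped. The alpha-like sum was 0.637 to 0.727 of the beta-like sum in Disp1_WT and 0.452 to 0.642 in Myo10_WT.

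The genes that make or regulate haemoglobin were read from the same fits. In the comparison of the wild types limma called 19 of 21 tested globin regulators higher and 0 lower, beside 69.4% of all genes higher and 10.2% lower. They were led by Klf2 (9.77 ± 1.37 TPM at E9.5 and 1.39 ± 0.41 TPM at E8.5) and Nfe2 (7.16 ± 1.41 and 0.784 ± 0.404 TPM at the same ages), both transcription factors of erythroid cells among other tissues. Of 23 haem synthesis and iron genes 20 were called higher and 1 lower. Among the higher ones was Urod, an enzyme of the haem pathway (90.1 ± 2.12 TPM at E9.5 and 38.4 ± 2.55 TPM at E8.5). The lower one was Trf, the iron carrier transferrin, named after its value was seen. Of 26 red cell membrane and enzyme genes 26 were called higher, led by the peroxidase Prdx2 (658 ± 21.1 TPM at E9.5 and 242 ± 17.5 TPM at E8.5) and the Rh protein gene Rhd (8.80 ± 1.18 and 0.340 ± 0.226 TPM; SD, n = 4 in each group).

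The median log2 difference was 0.86 for the globin regulators, 1.21 for the haem and iron genes and 2.09 for the red cell genes, beside 0.62 for all genes. These counts shift with scaling: with median-of-ratios scaling, where 36.4% of all genes were called higher and 36.2% lower, 11 of 20 globin regulators were called higher and 2 lower, 15 of 23 haem and iron genes higher and 4 lower, and 25 of 26 red cell genes higher and 1 lower. Of 6 tested definitive haematopoietic genes 4 were called higher, led by Cd34 and Mecom, and 2 of 5 after that scaling, when 1 was called lower; both shares are near those of all genes. In the Disp1 and Myo10 comparisons limma called 0 members of these lists in either direction, with the smallest adjusted p at 1.00 and 0.473. Members with the smallest p there included Sox6 and Lin28b, Urod and Abcb6, Rhd, and Mecom and Mpo for Disp1_CS_INDEL against Disp1_WT. For Myo10_m1J against Myo10_WT they were Zbtb7a and Ldb1, Slc11a2 and Ireb2, Epb41 and Slc4a1, and Kit and Cd34.

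Alas2 and Slc4a1, which encodes the anion exchanger band 3, were read in each group as erythroid references, with Klf1 and Gata1. Alas2 averaged 92.5 ± 20.6 TPM in Disp1_CS_INDEL and 99.2 ± 14.1 TPM in Disp1_WT (SD, n = 4 each), and 6.23 ± 6.52 TPM in Myo10_m1J (SD, n = 5) and 3.46 ± 2.70 TPM in Myo10_WT (SD, n = 4). Slc4a1 averaged 105 ± 35.0 and 102 ± 12.1 TPM in the same E9.5 groups and 4.39 ± 5.21 and 1.25 ± 1.88 TPM in the same E8.5 groups. Klf1 averaged 26.7 ± 8.87 TPM in Disp1_CS_INDEL, 23.5 ± 3.15 TPM in Disp1_WT, 4.55 ± 5.36 TPM in Myo10_m1J and 4.31 ± 2.91 TPM in Myo10_WT. Gata1, the factor on which erythroid cells depend, averaged 11.6 ± 2.09, 11.6 ± 1.33, 1.97 ± 2.27 and 2.12 ± 1.33 TPM in the same order of groups. Between the wild types the E9.5 mean was 5.45 times the E8.5 mean for Klf1, 5.48 times for Gata1, 28.6 times for Alas2 and 81.7 times for Slc4a1. Without Myo10_WT replicate 1 it was 45.04 times for Alas2 and 332 times for Slc4a1. All 4 genes are among the markers of the covariate.

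The other globin rows of the table were low. Hbq1b, the theta globin, was 5.02 to 10.2 TPM in Disp1_CS_INDEL, 6.22 to 8.75 TPM in Disp1_WT, 0 to 1.34 TPM in Myo10_m1J and 0 to 0.358 TPM in Myo10_WT. Cygb, the cytoglobin of fibroblasts and other cells, was 4.50 to 5.79 TPM in Disp1_CS_INDEL, 3.83 to 5.85 TPM in Disp1_WT, 0.323 to 1.71 TPM in Myo10_m1J and 0.374 to 0.696 TPM in Myo10_WT. Myoglobin (Mb) reached at most 1.55 TPM, Hbb-bh2 0.916 TPM, Hbq1a 0.559 TPM and neuroglobin (Ngb) 0.316 TPM in any embryo. limma called Hbq1b (log2 difference 2.96, adjusted p = 1.66e-08) and Cygb (1.97, adjusted p = 1.68e-07) higher at E9.5 among the wild types. In the Disp1 comparison it called neither (0.11 and 0.04, adjusted p = 1.00 each), and neither passed the filter in the Myo10 comparison.

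The embryonic globins varied together from embryo to embryo, the adult beta genes varied apart from Hbb-y, and the adult-type alpha genes lay between. Over the 17 libraries, after the mean of each of the 4 groups was subtracted, Pearson's r of log2(TPM + 1) was 0.991 between Hbb-bh1 and Hba-x and 0.967 between Hbb-y and Hba-x. It was 0.981 between Hba-a1 and Hba-a2 and 0.936 between Hbb-bs and Hbb-bt, pairs that share reads. Between Hbb-y and Hbb-bs it was 0.01. Myo10_m1J replicate 1 enters all these values, with 1.02 TPM of Hbb-y, the lowest at E8.5, and 301 TPM of Hbb-bs, the highest. No r was computed without that embryo, so how far the separation of the adult beta genes rests on it is not known. Hba-a1 reached 0.771 with Hbb-bh1 and 0.76 with Hbb-bs, and Hba-a2 reached 0.676 with Hbb-bh1 and 0.836 with Hbb-bs. All genes of a library share its composition and scaling, and these values are given as a description.

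Among 13910 genes, those most like Hbb-bh1 by the same measure included Slc4a1 (0.959), Klf1 (0.935), Mrap (0.932) and Hemgn (0.932). The genes nearest to Hba-x included Slc4a1 (0.965), Mrap (0.943), Hemgn (0.923) and Cck (0.921), and Hbb-y was most like Cck (0.944), Gm22422 (0.938), Slc4a1 (0.936), Col3a1 (0.91) and Msrb3 (0.906). Alas2 was the gene most like Hba-a1 (0.96) and Hba-a2 (0.944), followed by Tgm2 and Tent5c in an order that differed between them, then Klf1 and Mgst3 for Hba-a1 and Mgst3 for Hba-a2. The adult beta genes had other neighbours, again with Myo10_m1J replicate 1 included. Pdlim1 led for Hbb-bs (0.93) and Hbb-bt (0.928), with Tdo2, Aqp1, Phactr1 and Acss2 next for Hbb-bs and Plaat3, AA986860, Nccrp1 and Tdo2 next for Hbb-bt. Of these, Aqp1 belongs to the list of red cell membrane and enzyme genes.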

How the data were processed

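RNA of 17 single whole embryos was sequenced after TruSeq library preparation, per the labels' protocols. The authors deposited TPM per gene symbol; each library summed to 1000000, so depth is unknown and no counting intervals are given. The submitters' processing notes name the build GRCm39 (mm39); aligner, quantifier and gene annotation: not given in the sources used here. Sequences come from GENCODE and RefSeq tables of GRCm38, so no coordinates of the authors' build are printed.

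Groups followed the sample titles. A gene was tested when 4 or more libraries of the comparison had it at 1 TPM or above. Tests used log2(TPM + 1), which understates changes of low genes, and limma 3.58.1 in R 4.3.3 (mean-variance trend, Benjamini-Hochberg adjustment over all genes tested, threshold 0.05). Each comparison was fitted alone, and the procedure was tested on simulated data. That test required most of the largest known changes to be called in the Disp1 and age comparisons, but not in the Myo10 comparison. Globin log2 ratios were set against each other by exact permutation, two-sided (double the smaller one-sided p).

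The members, lists and tests were chosen with earlier results of these data known. Named genes were the 7 members, the other globin rows, the 2 members of each pathway list with the smallest p per comparison, Klf1, Gata1, Alas2 and Slc4a1, and the 5 genes most like each member; marker genes of other cell types were read per embryo. Alternatives were another pseudocount, other filters, other scalings, near-identical genes summed, no trend, a replicate block, a joint fit of the 17 libraries, 1 TPM added before the ratios, an erythroid covariate and each library left out; protein-coding genes only was added after seeing the data. Some genes that this rule names are not reported here.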

Additional observations from a re-analysis of the deposited data

Results flagged for a closer look

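Of 72 group values examined, 11 had an embryo far from the others of its group. The nominal rate of the rule, about 1 in 20, is for values drawn from a normal distribution. TPM at E8.5 was very uneven, so the count cannot be read against that rate. Of the 11 flagged, 6 came from Myo10_m1J replicate 1. Its alpha-like sum was 0.964 of its beta-like sum, with the next embryo of the group at 0.547. Hbb-bh1 made up 17.3% of its beta-like sum, with the next embryo at 78.7%, and Hbb-bs plus Hbb-bt made up 82.4%, with the next at 9.84%. Hba-a1 plus Hba-a2 made up 95.9% of its alpha-like sum, with the next at 47.1%. Its log2 ratio of Hbb-y to Hbb-bh1 was -6.22, with the next at -3.09, and its log2 ratio of Hba-a1 plus Hba-a2 to Hba-x was 4.54, with the next at -0.17.

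Myo10_WT replicate 1 stood above the other embryos of its group in 4 values: 95.5 TPM of Hbb-y (next 16.6), 1040 TPM of Hbb-bh1 (next 301), 472 TPM of Hba-x (next 117) and 4.07 TPM of Slc4a1 (next 0.454). Disp1_CS_INDEL replicate 2 had 61.1% of its beta-like sum from Hbb-y, with the next embryo at 56.1%. These values share genes and libraries, so they are not separate signals, and no cause was tested.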

How the results depend on the processing

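The count of globins called stayed at 0 of 7 in the Disp1 and Myo10 comparisons under all 12 other settings and each left-out embryo. In the age comparison it stayed at 7 of 7 (5 of 5 with near copies summed), apart from the following. It was 6 with protein-coding genes only and 0 with the erythroid marker mean as a covariate. That covariate runs with age and cannot be told apart from it. With it Hbb-bt and Hbb-bs turned to -1.85 and -2.88, and the cause was not tested. In the Myo10 comparison the same covariate turned Hbb-bh1 to -0.080 and Hba-x to -0.17, and median-of-ratios scaling turned Hbb-bt to 0.11. Called genes over the whole table varied between 1 and 8 (4 as reported) for Disp1 and between 2279 (covariate) and 12957 (no filter) for age (10668).

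Leaving out each embryo turned the sign of some uncalled differences. For Disp1 these were Hbb-y (-0.19 to 0.078), Hbb-bh1 (-0.25 to 0.12), Hba-x (-0.19 to 0.16), Hba-a1 (-0.18 to 0.11) and Hba-a2 (-0.24 to 0.25). For Myo10 they were Hbb-bh1 (-0.66 to 0.81), Hba-x (-0.78 to 0.73), Hbb-bt (-0.85 to 0.46) and Hbb-bs (-0.58 to 0.81). The Hbb-y to Hbb-bh1 difference ranged over -0.045 to 0.075 for Disp1, 0.44 to 1.51 for Myo10 and 4.29 to 4.86 for age (exact permutation p = 0.0571 each, the smallest that 3 against 4 allow). The alpha-like ratio ranged over -0.021 to 0.043 for Disp1 and -0.29 to 1.11 for Myo10.

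Correlations of same-numbered embryos ran between -0.29 and 0.46. Those of replicate 4 were positive in all 3 comparisons, but not every pair passed 0.1, so the numbers were not taken to pair the embryos. With a replicate block the age difference of Hbb-y to Hbb-bh1 was 4.60 (exact permutation p = 0.125, the smallest for 4 pairs), and no globin call changed. In the Myo10 comparison the block also takes out Myo10_m1J replicate 5, which has no partner: Hbb-bt turned to 0.45, as it did without that embryo and with no block, while 46 genes over all were called with the block and 1 without that embryo alone.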
